A study of Homo sapiens with 10 samples.

Results

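The neuroendocrine markers studied here are 10 genes, ENO2, CHGA, CHGB, SYP, NCAM1, SCG2, SCG5, UCHL1, NTS and INSM1, out of 19775 genes measured by at least 1 probe set annotated with a single symbol. The set was selected on measured values: ENO2 was chosen by its intensity difference between EOS and PGK cells in LNCaP, and the others because they are markers of the same cell state. That comparison is therefore described below without a p-value for any of the 10 genes. Probe sets annotated with exactly 1 of these symbols numbered 18, and for each gene the one of highest mean level was used. The alternative probe sets were 6 for NCAM1, 1 for UCHL1 and 1 for INSM1.

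The arrays measured human prostate cancer cell lines: LNCaP, which came from a lymph node metastasis and responds to androgen, and DU145, which came from a brain metastasis and does not depend on it. LNCaP contributed 1 array of EOS cells with ribavirin, 2 arrays of EOS cells and 2 arrays of PGK cells, and DU145 the same, 10 arrays in all. EOS cells carry a reporter in which enhancers of OCT4 and SOX2 drive GFP and puromycin resistance, and they were grown under puromycin for some weeks. PGK cells carry the same genes behind the PGK promoter, which is active in all cells. The ribavirin arrays are of EOS cells number 2, and the dose and duration are not given in the labels. The labels do not state whether arrays 1 and 2 of a group are separate cultures, so the p-values cover spread between arrays that may be technical only. As a check of the labels, 12 of 15 tested luminal and androgen-responsive genes were called higher in LNCaP PGK than in DU145 PGK cells and 0 lower, where limma called 15.2% of all genes higher and 17.9% lower. HOXB13, a prostate homeobox factor, was at 5.99 ± 0.32 log2 (SE; limma adjusted p = 6.52e-06).

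Neuroendocrine cells of the prostate are rare epithelial cells that store peptides and amines in dense-core granules. Chromogranins and secretogranins (CHGA, CHGB, SCG2) help form these granules, SCG5 is a chaperone of the prohormone convertase PCSK2, and synaptophysin (SYP) is a membrane protein of synaptic-like vesicles. NTS encodes the peptide neurotensin, NCAM1 a neural adhesion molecule, INSM1 a zinc finger transcription factor of neuroendocrine differentiation and UCHL1 a neuronal ubiquitin hydrolase. ENO2, called neuron-specific enolase, is unlike the granule genes: it is an enzyme of glycolysis, used as a serum marker of neuroendocrine tumours. Prostate adenocarcinoma can acquire this programme under androgen deprivation, and LNCaP cells are a common model of that change.

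The promoters of 3 markers are shown because these genes stood at different levels in the arrays: ENO2, which differed between LNCaP groups, UCHL1, bright in DU145 and dim in LNCaP, and CHGA, dim on every array. Sequences are the 250 bases before the start that the RefSeq promoter table (GRCh38.p14) gives for the gene, 5′ to 3′ on its strand, and the table held 6 of the 10 members. For CHGA that start lies inside the annotated gene, downstream of its first base. ENO2 lies at chr12:6914330-6914579 (plus strand), UCHL1 at chr4:41256678-41256927 (plus strand) and CHGA at chr14:92922900-92923149 (plus strand). Capitals mark matches, on either strand, to 7 motifs. The hypoxia response element was searched as ACGTG, with the variant form GCGTG. The element bound by the repressor REST was searched as CAGCACC, from its first part, and as GGACAGC, from its second part. The cyclic AMP response element was searched as TGACGTCA, the TATA box by the letters TATAAA, and the GC box by the letters GGGCGG. None of these motifs overlapped another in the 3 windows.
ENO2: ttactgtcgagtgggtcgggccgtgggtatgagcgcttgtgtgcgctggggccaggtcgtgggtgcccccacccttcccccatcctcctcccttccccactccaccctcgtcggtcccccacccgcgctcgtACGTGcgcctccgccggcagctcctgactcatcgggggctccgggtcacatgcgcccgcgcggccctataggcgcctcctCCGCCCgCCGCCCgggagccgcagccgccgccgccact
UCHL1: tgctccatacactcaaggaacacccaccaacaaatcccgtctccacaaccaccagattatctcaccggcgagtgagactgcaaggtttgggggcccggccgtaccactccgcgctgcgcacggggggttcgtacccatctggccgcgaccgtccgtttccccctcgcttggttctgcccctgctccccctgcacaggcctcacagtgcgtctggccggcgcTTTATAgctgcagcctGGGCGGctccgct
CHGA: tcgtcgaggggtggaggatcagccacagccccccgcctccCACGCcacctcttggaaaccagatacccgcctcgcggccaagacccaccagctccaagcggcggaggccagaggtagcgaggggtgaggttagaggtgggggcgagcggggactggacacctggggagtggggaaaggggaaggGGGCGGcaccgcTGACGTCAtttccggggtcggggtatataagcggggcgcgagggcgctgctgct
The ENO2 window held 1 match to ACGTG, found in 18.5% of 35116 promoter windows of the same length, and 2 to GGGCGG, found in 42.6%. The UCHL1 window held 1 match to TATAAA, found in 10.7%, and 1 to GGGCGG. The CHGA window held 1 match to TGACGTCA, found in 1.65% of windows, 1 to GCGTG, found in 32.2%, and 1 to GGGCGG. The REST pieces had no match in these 3 windows. CAGCACC was found in 6.16% of all windows. The other piece, GGACAGC, was found in 4.76%. CpG pairs numbered 30 in the ENO2, 20 in the UCHL1 and 21 in the CHGA window, against a median of 11 over all windows, and 2 in that of NTS. A match describes the letters and does not show that a factor binds there.

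Most of the markers were dim in every group. Intensities were scaled to a 2% trimmed mean of 500 on each array, and the median probe set of an array then lay between 53.6 and 71.3. CHGA, CHGB, SYP, SCG2, SCG5, NTS and INSM1, 7 of the 10 markers, stayed below the median of their array on every array: of their 70 values 0 lay above it. Their intensities ran from 0.637 to 49.4, and the median of their ranks was the 24.7th percentile of the array. NCAM1 lay above the array median on 2 arrays, and ENO2 and UCHL1 on 9 each. A gene entered the test if a probe set exceeded the array median on at least 2 of 10 arrays, which 14313 genes did. Only these 3 of the 10 markers passed, NCAM1 at that limit of 2 and the nearest marker outside it at 0 arrays.

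**Figure D1:**
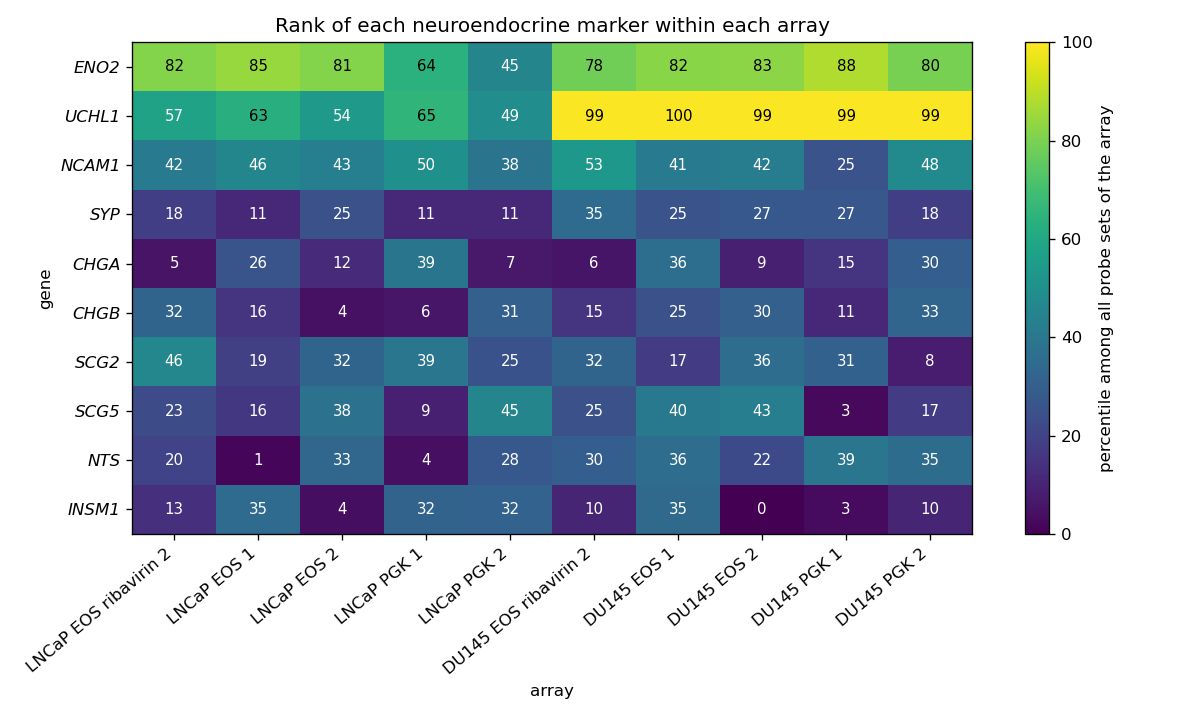
Percentile of each marker (rows) among all probe sets of each of the 10 arrays (columns), from 0 for the dimmest to 100 for the brightest. ENO2 ranks high on every array except the LNCaP PGK ones, UCHL1 is near the top in DU145, and the 7 genes below NCAM1 stay under the 50th percentile throughout.

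ENO2, which was selected for this comparison, was bright in EOS cells of LNCaP and dim in their PGK controls. Its scaled intensity was 964 and 687 in the LNCaP EOS arrays, against 141 and 42.1 in the LNCaP PGK arrays. Both EOS arrays lay above both PGK arrays, and PGK array 2 lay below its own array's median of 53.6. In percentiles of the array these were 84.7 and 81.3 in EOS cells, against 63.9 and 45.4 in PGK cells. On the log2(intensity + 16) scale the difference was 3.12 ± 0.51 (SE, n = 2 arrays of EOS and 2 of PGK cells, 8.69-fold). It was the largest increase among the 14313 tested genes. The SE uses a spread shared by the groups with 2 arrays in both lines, and not that of the LNCaP arrays alone. The arrays numbered 1 gave 2.64 and those numbered 2 gave 3.60. Without PGK array 1 the difference was 3.84, without PGK array 2 it was 2.40, without EOS array 1 it was 2.88 and without EOS array 2 it was 3.36. The size thus depended most on the PGK arrays, which differed from each other more than the EOS arrays did. PGK array 2 also stood apart over all genes, at -53.35 on the third principal component (4.21% of the variance), where the remaining arrays lay between -11.9 and 21.0. The second component (8.14%) split the LNCaP arrays by number after scaling. Those numbered 1 lay at 46.5 and 48.0, and those numbered 2 between -37.4 and -21.2.

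The other 9 markers showed no difference of this size in LNCaP. Their EOS minus PGK values ran from -0.36 for INSM1 to 0.34 for SYP, with a median of 0.06 log2, which is also the median of all 19775 genes (0.06). SYP was the 1 other marker whose arrays did not overlap, with intensities of 5.34 and 15.2 in EOS cells against 4.58 and 4.15 in PGK cells, all far under the array medians. With ENO2 set aside because it was selected for this difference, 1 of the 9 other markers was thus higher without overlap, where 19.2% of all genes were. Of the same 9 markers 0 were lower without overlap, where 10.9% of all genes were. UCHL1, which lay above the array median on most LNCaP arrays, had intensities of 140.2 and 75.7 in EOS cells against 158 and 50.8 in PGK cells. These ranges overlapped, with a difference of 0.15 ± 0.43 that ran from -0.54 (without PGK array 2) to 0.84 (without PGK array 1) when an array was left out. NCAM1 read 49.1 and 45.7 in EOS cells against 55.7 and 29.9 in PGK cells, also overlapping (0.15 ± 0.51, and -0.18 without PGK array 2 to 0.47 without PGK array 1). Its 6 other probe sets gave differences from -0.46 to 0.26, 3 of them below 0. CHGA was at -0.16, CHGB at -0.27, SCG2 at -0.14, SCG5 at 0.06 and NTS at 0.22, all from intensities that were below the array median. At such levels a difference of either sign cannot be read as a change.

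**Figure D2:**
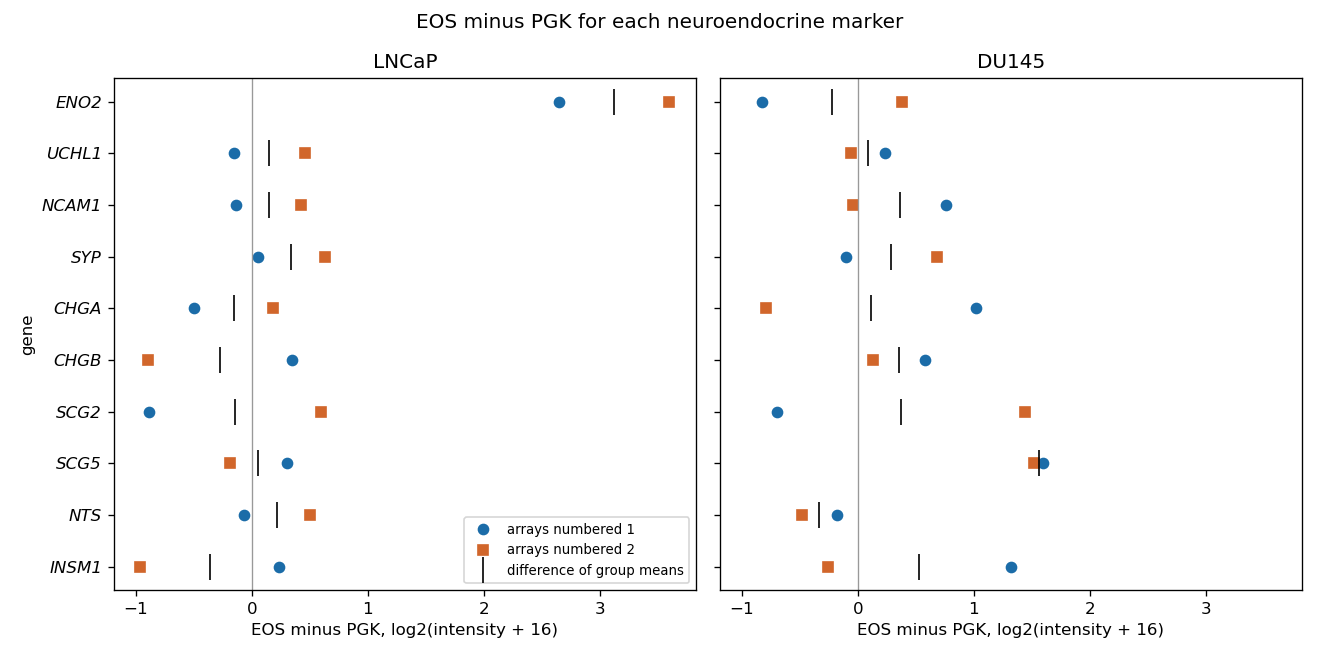
EOS minus PGK for each marker on the log2(intensity + 16) scale in LNCaP (left) and DU145 (right), with 1 point for the arrays numbered 1, 1 for those numbered 2 and a bar at the difference of the group means. In LNCaP ENO2 lies at 2.64 and 3.60 while every other point lies between -1 and 1, and in DU145 SCG5 has both points near 1.5.

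Over the 6 groups ENO2 was low in LNCaP PGK cells and similar everywhere else. Group means on the log2 scale were 9.48 in LNCaP EOS cells with ribavirin, 9.70 ± 0.34 in LNCaP EOS cells and 6.58 ± 1.01 in LNCaP PGK cells. They were 9.13 in DU145 EOS cells with ribavirin, 9.66 ± 0.03 in DU145 EOS cells and 9.88 ± 0.82 in DU145 PGK cells (SD, n = 2 arrays, with 1 array for each ribavirin group). From high to low the order was DU145 PGK, LNCaP EOS, DU145 EOS, LNCaP ribavirin, DU145 ribavirin and LNCaP PGK. The arrays of the first 3 groups overlapped, and each ribavirin group is a single array. The gap between the lowest of those 5 groups and LNCaP PGK was 2.55. Among the PGK cells ENO2 read 141 and 42.1 in LNCaP against 1395 and 615 in DU145, a difference of -3.30 ± 0.51 that uses the LNCaP PGK arrays through which the gene was chosen.

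**Figure D3:**
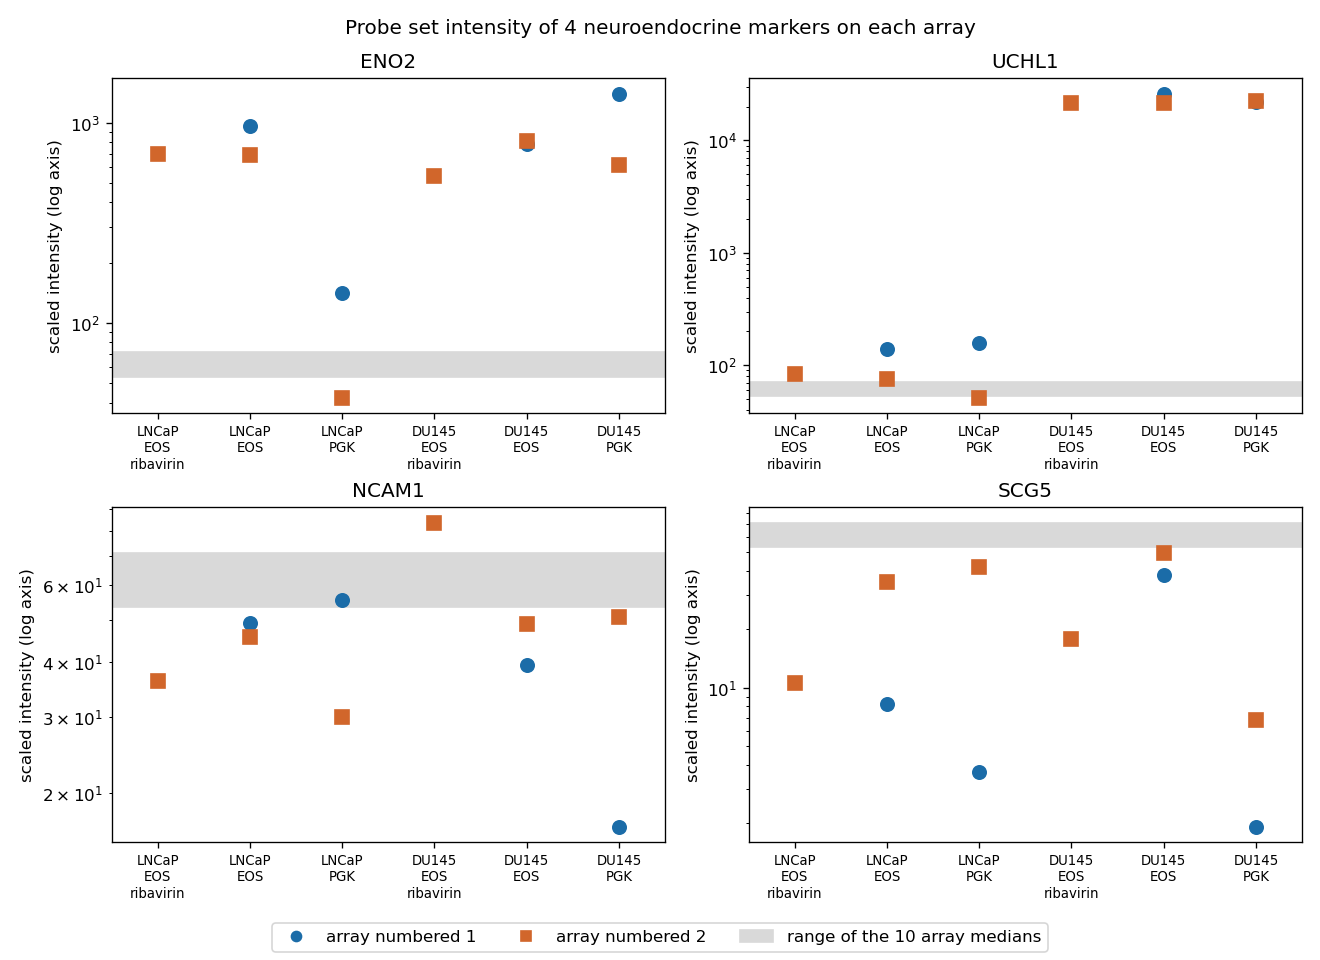
Scaled intensity (log axis) of ENO2, UCHL1, NCAM1 and SCG5 on each array, by group, with circles for arrays numbered 1, squares for those numbered 2 and a grey band for the range of the 10 array medians. ENO2 is at 141 and 42.1 in LNCaP PGK cells and above 500 in the other groups, UCHL1 separates the lines, NCAM1 stays around the array medians and SCG5 stays below them.

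In DU145, no marker passed the test between EOS and PGK cells. This comparison took no part in the choice of the genes. ENO2 read 779 and 806 in DU145 EOS cells against 1395 and 615 in DU145 PGK cells, so that the EOS values lay between the PGK values (-0.22 ± 0.51, limma adjusted p = 1.00). The arrays numbered 1 gave -0.83 and those numbered 2 gave 0.38. UCHL1 was at 0.09 ± 0.43 and NCAM1 at 0.36 ± 0.51 (limma adjusted p = 1.00 for both). limma called 0 of the 3 tested markers, and it called 0% of all 14313 genes, with 226 genes and 0 markers at an unadjusted p under 0.05. The median of the 10 markers was 0.32, against -0.0032 over all genes, with 8 of 10 above 0. Of these 10, 7 were too dim for a difference of either sign to be read. The 3 tested markers had a median of 0.09, with 2 above 0, against -0.02 over all tested genes. The difference of ENO2 in LNCaP minus that in DU145 was 3.34 ± 0.72, a value that includes the comparison by which the gene was selected.

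SCG5, the convertase chaperone, was the 1 marker whose DU145 arrays did not overlap. Its intensity was 38.1 and 49.4 in EOS cells, against 1.90 and 6.83 in PGK cells, where 15.1% of all genes were higher without overlap. The difference was 1.56 ± 0.57 in the fit without a filter on dim genes (limma adjusted p = 1.00), with 1.60 in the arrays numbered 1 and 1.52 in those numbered 2. All 4 values lay below the median of their arrays, and in LNCaP the gene read 8.28 and 35.1 in EOS cells against 3.67 and 42.1 in PGK cells.

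With ribavirin, a guanosine analogue, none of the tested markers passed the test against EOS cells. These were NCAM1 and UCHL1 in both lines and ENO2 in DU145, and the other markers were too dim to be tested. In LNCaP ENO2 read 697 on the ribavirin array, against 964 and 687 in EOS cells, so that it lay between the EOS arrays. The difference to EOS array 2, to which the labels tie the ribavirin array, was 0.02, and that to the mean of both EOS arrays was -0.22 ± 0.62. With the array number as a replicate block it was 0.26. The EOS arrays took part in the choice of the gene, so no test is given. In DU145 ENO2 read 543 on the ribavirin array, against 779 and 806 in EOS cells, a difference of -0.53 ± 0.62 (limma adjusted p = 1.00; 1 array against 2). UCHL1 was at -0.26 ± 0.52 in LNCaP and -0.14 ± 0.52 in DU145, and NCAM1 at -0.28 ± 0.62 and 0.73 ± 0.62. limma called 0 markers and 0% of all genes in each line, with 289 genes in LNCaP and 250 in DU145 at an unadjusted p under 0.05. Ribavirin and EOS-to-PGK differences share the EOS arrays.

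UCHL1 was the marker that separated the lines. Its intensity in LNCaP was 84.0 with ribavirin, 140.2 and 75.7 in EOS cells and 158 and 50.8 in PGK cells. In DU145 it was 21377 with ribavirin, 26051 and 21434 in EOS cells and 22088 and 22345 in PGK cells, the 99.4th to 99.5th percentile of the arrays. Among PGK cells LNCaP was lower by 7.69 log2 (-7.69 ± 0.43, 206-fold lower, limma adjusted p = 7.46e-06), with -6.99 in the arrays numbered 1 and -8.39 in those numbered 2. The LNCaP values lay near the array medians, so the fold is set by the dim side. A second UCHL1 probe set, which was dimmer (15.9 to 229.9), gave -1.81. Between these PGK cells limma called 33.1% of all genes. NCAM1, the other marker tested here, was not called, at 0.30 ± 0.51 (limma adjusted p = 0.701).

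The related enolases had overlapping EOS and PGK arrays. ENO1, the enolase of most tissues, read 31109 and 24406 in LNCaP EOS cells against 25155 and 31259.7 in LNCaP PGK cells, with overlapping arrays (-0.03 ± 0.16). ENO3, the muscle enolase, read 339 and 247 in LNCaP EOS cells against 269 and 196 in LNCaP PGK cells, also overlapping (0.31 ± 0.30). In DU145 ENO1 was at 0.05 ± 0.16 and ENO3 at 0.07 ± 0.30 (limma adjusted p = 1.00 for all 4 values). Of the 21 glycolysis genes listed without ENO2 all 21 were tested and limma called 0 for EOS against PGK in either line. It called 0% of all 14313 genes in LNCaP too, with 596 at an unadjusted p under 0.05. Their median was 0.24 in LNCaP, with 19 of 21 above 0, and 0.07 in DU145, with 14 of 21 above 0, beside 0.05 and -0.02 over all tested genes. Their arrays did not overlap and were higher for 7 of 21 in LNCaP, where 18% of tested genes were. The aldolase ALDOC was at 1.12 ± 0.47 in LNCaP and -1.42 ± 0.47 in DU145. The regulators PFKFB4 and PFKFB3 were at 0.87 ± 0.33 and 0.78 ± 0.23 in LNCaP. In a list of 19 tested hypoxia response genes the LNCaP median was 0.62, with 17 above 0 and 11 higher without overlap, and the DU145 median was 0.02. ANGPTL4 was at 2.01 ± 0.62, NDRG1 at 1.04 ± 0.31 and ANKRD37 at 0.98 ± 0.37 in LNCaP, and none of the 19 was called. NDRG1 is also in the list of luminal and androgen-responsive genes. The 15 tested genes of that list had a median of 0.27 in LNCaP, with 12 above 0, 3 higher without overlap and 0 called. Their median in DU145 was -0.06.

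**Figure D4:**
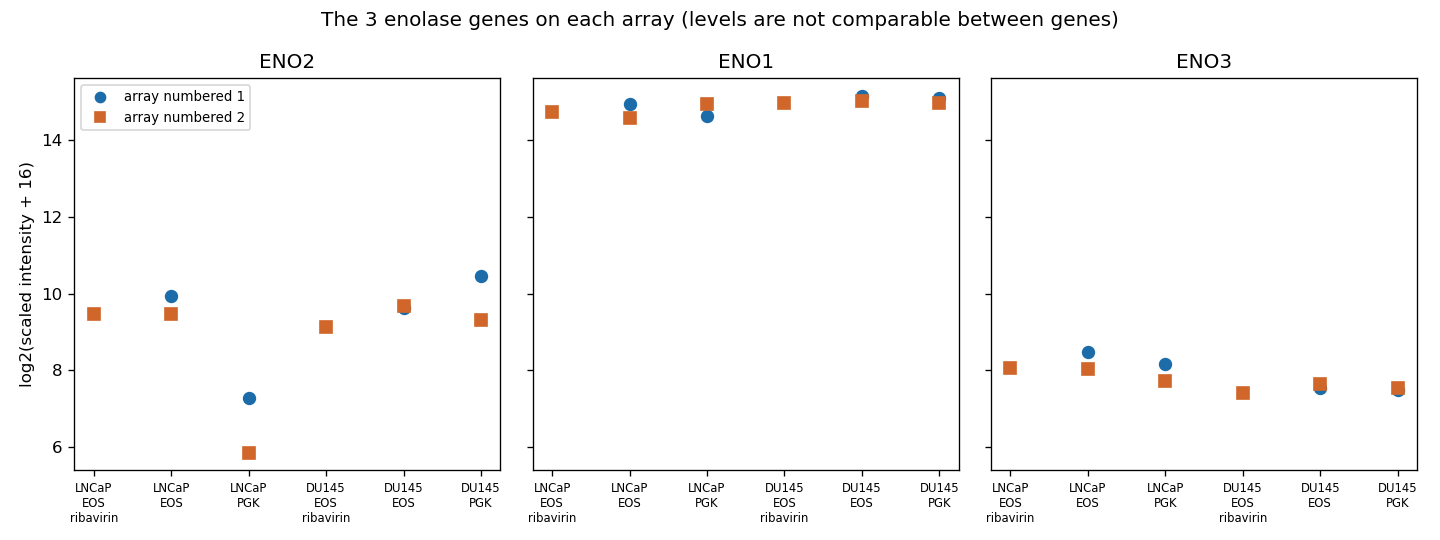
Level of ENO2, ENO1 and ENO3 on each array as log2(scaled intensity + 16), by group, with circles for arrays numbered 1 and squares for those numbered 2. ENO2 lies at 7.29 and 5.86 in LNCaP PGK cells, whereas ENO1 and ENO3 stay within a narrow band in all 6 groups.

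Genes of the same programme outside the 10 markers were at mixed levels. Of 31 further granule and neuropeptide genes 28 had a probe set with a single symbol, and 18 of these were tested. Above the array median on all 10 arrays were 6 of the 28, by at least 1 probe set: the granule peptide precursor VGF, the processing enzymes CPE and PAM, the convertase inhibitor PCSK1N, the vesicle GTPase RAB3B and the peptide galanin (GAL). Above it on no array were 7 of the 28, the dense-core granule protein SCG3, CPLX2, DNER and the peptides GRP, VIP, SST and TAC1. limma called 0 of the 18 for EOS against PGK in LNCaP (median 0.41, 14 above 0) and 0 in DU145 (median 0.06, 10 above 0). In LNCaP 4 of 18 were higher without overlap, where 18% of tested genes were. The largest differences were in DU145. PMCH, which encodes the precursor of a hypothalamic peptide, was at 2.39 ± 0.47, the vesicle GTPase RAB3A at -1.14 ± 0.29 and complexin CPLX1 at -0.94 ± 0.49 (limma adjusted p = 1.00 each). CPLX1 read 23.3 and 3.63 in DU145 EOS cells against 40.4 and 34.3 in DU145 PGK cells. It lay below the array median on every DU145 array, so this difference cannot be read as a change. PMCH read 82.2 and 88.1 in DU145 EOS cells against 3.41 and 3.26 in DU145 PGK cells. On the DU145 ribavirin array it read 3.71. Its size is undetermined because the PGK values are near the floor of 4 log2 that the pseudocount sets.

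Neuronal cytoskeleton and RNA-binding genes gave 12 tested of 21. Above the array median on all 10 arrays were 5 of them, the tubulin TUBB3, the microtubule proteins MAP2 and MAPT, NRSN2 and KCNH2. Another 5, STMN2, GAP43, NEFH, ELAVL3 and DCX, were above it on no array. limma called 0 in LNCaP (median 0.11) and 0 in DU145 (median 0.04). KCNH2, a potassium channel, read 638 and 663 in LNCaP EOS cells against 191 and 158 in LNCaP PGK cells (1.81 ± 0.33), with no overlap. In LNCaP it was the 1 gene of the 12 tested that was higher without overlap, where 18% of all tested genes were. The neurofilament gene NEFL was at 1.60 ± 1.45, from 0.24 in the arrays numbered 1 and 2.97 in those numbered 2, and CRMP1, a collapsin response mediator, was at -0.36 ± 0.70 in LNCaP and 0.85 ± 0.70 in DU145. Of 29 regulators of the neuroendocrine state 26 had a probe set with a single symbol and 18 were tested, again with 0 called in either line (medians 0.04 in LNCaP and -0.04 in DU145). REST, the repressor of neuronal genes, read 949 and 1541 in LNCaP EOS cells against 1469.9 and 1058 in LNCaP PGK cells, with overlapping arrays (-0.04 ± 0.32), and was at -0.11 ± 0.32 in DU145. Above the array median on all 10 arrays were 10 of the 26, FOXA1, AURKA, EZH2, REST, RCOR1, SIN3A, RB1, DLL3, HES1 and HES6. Above it on no array were 5, NEUROG3, POU3F2, FOXA2, SRRM4 and ST18. PEG10, a retrotransposon-derived gene raised in neuroendocrine prostate cancer, was at 0.67 ± 0.39 in LNCaP and 0.11 ± 0.39 in DU145. Its LNCaP arrays overlapped, with -0.20 in the arrays numbered 1 and 1.54 in those numbered 2. MYT1, a neural zinc finger factor, was at -0.68 in DU145 and -0.19 in LNCaP, and POU4F1, a POU homeobox factor, was at -0.55 in DU145 and 0.59 in LNCaP. Between the PGK cells of the lines PEG10 was lower in LNCaP (-5.39 ± 0.39, limma adjusted p = 3.07e-05). In that comparison, where limma called 15.2% of all genes higher and 17.9% lower in LNCaP, the granule list had 5 of 18 tested genes called higher and 5 lower, with RAB3A among those higher at 1.85 ± 0.29 (limma adjusted p = 0.00164). The cytoskeleton list had 1 of 12 called higher and 4 lower, and the regulators 5 of 18 higher and 4 lower.

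The receptors for these peptides were mostly dim. Of 10 receptor genes 9 had a probe set with a single symbol and 2 were tested. Above the array median on no array were 4 of the 9, both neurotensin receptors, NTSR1 and NTSR2, with NMBR and CALCRL. The gastrin-releasing peptide receptor GRPR was at 1.28 ± 0.64 in LNCaP and 1.54 ± 0.64 in DU145, and limma called it in neither line. Its intensities were 104 and 24.4 in LNCaP EOS cells against 15.7 and 10.01 in LNCaP PGK cells. The LNCaP value came from 1.92 in the arrays numbered 1 and 0.63 in those numbered 2. GRPR exceeded the array median on 2 arrays only, LNCaP EOS 1 and DU145 EOS 2, so it entered the test through EOS arrays. Its PGK values were all below the array medians, and its differences cannot be read as a change. The somatostatin receptor SSTR2 was at -0.15 ± 0.50 in LNCaP.

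The genes whose pattern was most like that of ENO2 over the 10 arrays were HLA-C (Pearson r = 0.954), B3GNT4 (0.937), HCP5 (0.918), CLTCL1 (0.912) and UBTD1 (0.912), out of 10273 tested genes with a range of at least 1 log2. None is a neuroendocrine marker of the lists used here. Beside ENO2 only NCAM1 and UCHL1 of the 10 markers could have appeared, because the others were not tested. The points share lines and array numbers, and ENO2 itself was selected, so these values describe the arrays only. For HLA-C, a class I antigen gene with close relatives, the mean level was 13.34 in LNCaP EOS cells and 12.63 in LNCaP PGK cells.

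Markers of cells foreign to an epithelial line ranged from dim to bright. In LNCaP the summed intensity of 7 fibroblast markers was 717 with ribavirin, 659 to 844 in EOS cells and 337 to 559 in PGK cells. In DU145 it was 3199 with ribavirin, 447 to 2855 in EOS cells and 469 to 780.2 in PGK cells. The collagen COL1A1 lay above the array median on all 10 arrays, and LUM on none. COL1A1 read 558 and 653 in LNCaP EOS cells against 393 and 168 in LNCaP PGK cells. POSTN, which encodes periostin, read 1.04 and 3.93 in LNCaP EOS cells against 21.5 and 26.9 in LNCaP PGK cells. In DU145 POSTN read 2019.5 with ribavirin, 91.8 and 1730.1 in EOS cells and 31.9 and 135 in PGK cells. The collagen COL3A1 read 381 with ribavirin, 59.98 and 501 in EOS cells and 47.8 and 36.3 in PGK cells of DU145. In LNCaP the fibroblast sum was higher in EOS than in PGK cells, and COL1A1 made up most of that sum in EOS cells. COL1A1 was at 1.18 ± 0.52 and POSTN at -1.12 ± 1.11 for EOS minus PGK in LNCaP. The 4 tested fibroblast markers had a median of -0.02 there, and limma called 0 of them and 0% of all tested genes. POSTN and COL3A1 lay below the array median on every LNCaP array, so their differences there cannot be read as a change. The median includes them and does not show that the markers were level, and COL1A1 was bright and higher in EOS cells. The sum of 5 leukocyte markers was 119 to 394 in LNCaP EOS cells against 186 to 238 in LNCaP PGK cells. That of 5 endothelial markers was 278 to 332 in LNCaP EOS cells against 151 to 302 in LNCaP PGK cells, and their member PECAM1 lay above the array median on 9 arrays. That of 3 glial markers was 33.9 to 51.7 in LNCaP EOS cells against 29.7 to 78.4 in LNCaP PGK cells. The pan-leukocyte gene PTPRC, the endothelial CDH5 and the glial S100B, GFAP and SOX10 were below the array median on all arrays. The part of these genes in the ENO2 difference was not tested.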

How the data were processed

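RNA of 10 samples was hybridised to Affymetrix arrays, and the authors deposited linear intensities for 54675 probe sets. MAS5 and affy are named without version per the submitters' processing notes, and how background was corrected is not given in the sources used here. As deposited, the 2% trimmed mean was 500 on every array with number 1 and 96.6 to 126.5 on those with number 2. The number therefore marks a difference in deposited scale, which the EOS and PGK groups share equally, while both ribavirin arrays are numbered 2. The design assumed log2 values if deposited so. As they were linear, arrays were brought to a common trimmed mean of 500, and 16 was added before taking log2, so that folds of dim genes are understated. Without counts, the number of arrays limits the precision.

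After removal of 62 controls, 41091 probe sets carried 1 symbol, 1801 several and 11721 none in GEO's platform annotation. Probe sets above the array median on at least 2 of 10 arrays were kept (33451), and the one of highest mean was taken for each of 14313 genes. Differences were tested on all of them with limma 3.58.1 under R 4.3.3 (a mean for each of 6 groups, 4 residual degrees of freedom, intensity trend, Benjamini-Hochberg adjustment at 0.05), and the script was tested on simulated data. For the lone ribavirin array of a line, the spread was taken from the groups with 2 arrays. Values after ± are SEs from this shared spread unless marked SD. Promoter motifs, percentiles and counts were computed in Python 3.11.15. The members and lists were chosen with earlier results of these data known. All 10 markers, ENO1, ENO3 and REST are named, with up to 3 genes per list of largest EOS minus PGK difference and the 5 genes most correlated with ENO2. Genes named as above the array median on all arrays or on none, and foreign cell markers, were chosen after their values were seen. Alternatives were a replicate block, a pseudocount of 1 or 64, no filter, unscaled values, quantile normalization and leaving out each array.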

Additional observations from a re-analysis of the deposited data

How the results depend on the processing

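The EOS minus PGK difference of ENO2 in LNCaP, by which the gene was chosen, ran from 2.40 to 3.84 with an array left out. It was 2.57 with a pseudocount of 64, 3.38 with a pseudocount of 1, 2.64 on the values as deposited and 3.03 after quantile normalization. With the replicate block it was 3.12 with the same estimate by construction. Both EOS arrays lay above both PGK arrays, so leaving out an array or changing the pseudocount could not reverse the direction. The array numbers are shared between groups without a stated pairing. Between same-numbered EOS and PGK arrays, deviations from the group means correlated over 14313 genes at r = 0.123 in DU145 and 0.484 in LNCaP. The block gave 5162 genes called between the lines, against 4733 without it. For UCHL1 the line difference was called under all alternatives, from -8.38 to -7.00 with an array left out and at -7.13 with a pseudocount of 64 (adjusted p from 1.78e-06 to 0.0174). On the values as deposited 58 genes and 1 marker, UCHL1, were called between the lines. There the PGK groups hold both deposited scales, which widens their spread. With 1 array left out the count of genes called between the lines ran from 2497 (without DU145 PGK 2) to 5061, with 2595 without DU145 PGK 1, and that for EOS against PGK in LNCaP from 0 to 4. The 4 were called without EOS 1, and 3 were called without PGK 1.

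Small differences that were not called changed sign, and beyond the deposited scale the cause was not tested. With an array left out, the EOS minus PGK value in DU145 ran from -0.80 to 0.36 for ENO2, from -0.15 to 0.87 for NCAM1 and from -0.052 to 0.23 for UCHL1. The ribavirin value of UCHL1 in LNCaP ran from -0.64 to 0.13, and the line difference of NCAM1 from -0.22 to 0.81. On the values as deposited UCHL1 was at -0.11 for EOS minus PGK in DU145 and NCAM1 at -0.20 for ribavirin in DU145. The EOS minus PGK value in LNCaP ran from -0.54 to 0.84 for UCHL1 and from -0.18 to 0.47 for NCAM1 with an array left out. With the replicate block the ribavirin value in LNCaP was 0.28 for UCHL1 and 0.26 for ENO2. On the values as deposited the ribavirin value of ENO2 in LNCaP was -1.27, with the same sign as the -0.22 after scaling. Both ribavirin arrays were deposited on the lower scale, while the EOS groups hold both scales. This lowers the ribavirin values as deposited. Of the 10 markers 7 are too dim for a difference to be read, and with 2 arrays a group an exact two-sided permutation test cannot go below p = 0.333.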
